A study of Mus musculus with 17 samples.

Results

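Ubiquitin-conjugating enzymes (E2s) and the cores of the cullin ubiquitin ligases were followed in one mouse cortical mRNA that was diluted and amplified in several ways. Their genes were chosen by symbol: every Ube2 gene with 1 letter and at most 1 digit after the root, every cullin, and the linker, adaptor and RING subunits Skp1, Elob, Eloc, Ddb1, Rbx1 and Rnf7. The choice gave 42 of the 18193 genes that the array measures through probe sets with a single symbol, namely 28 E2 genes, 8 cullins and 6 linker, adaptor or RING genes. They are measured by 99 of the 45037 probe sets, with 1 probe set for 12 genes and at least 2 for the other 30, up to 7 for Ube2d3. Ube2l3, whose probe sets carry several symbols, is not described here.

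Ubiquitin passes from an activating enzyme (E1) to the active-site cysteine of an E2, and a ligase (E3) then brings the charged E2 to the protein that is to be marked. Cullins are the scaffolds of the largest family of ligases: one end holds a small RING protein, Rbx1 or Rnf7, which binds the E2, and the other holds a linker such as Skp1, Ddb1 or the elongin B and C pair, which binds the receptor for the substrate. In neurons these enzymes take part in protein turnover at synapses, in axon growth and in the removal of damaged proteins.

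The study used these arrays as a control for its amplification of RNA from pools of dissected dendrites. One mRNA preparation served for all arrays, from cortex of adult female C57BL/6 mouse brain, an inbred strain. Antisense RNA amplification, which copies RNA linearly by in vitro transcription, was run on 0.1, 1 and 10 pg for 4 rounds (3 arrays each), on 0.1 and 1 pg for 2 rounds (3 arrays each) and on 10 pg for 2 rounds (1 array), and 5 µg of the mRNA was hybridized without amplification (bulk, 1 array). Replicates are therefore separate amplifications of one RNA, so a p-value here measures the spread between amplifications and says nothing of the spread between animals. Whether the labelling step counts as one of the rounds is not given in the sources used here.

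Levels are in log2 and relative to the median probe set of the array, which lies at 0. Probe sets differ in brightness for reasons of probe design, so a level is compared between arrays and not between probe sets. The source tissue was checked by 6 neuronal markers, whose probe sets lay between the 82.2 and the 99.1 percentile of bulk. Of 4 markers of tissues other than brain, Ckm of muscle (87.1 percentile) and Ins2 of the pancreas (86.0) lay above the neuronal Slc17a7 (82.2), so that bulk levels of single probe sets did not separate the lists. The array of 10 pg after 2 rounds held 872 distinct values, against 3771 in bulk, and carries no SD. It enters the fit as 1 of the 6 amplified groups set against bulk, and it is on neither side of the other comparisons. Distinct values were also few, 1258, 1577 and 2102, on the arrays of 0.1 pg after 2 rounds, and 1691 on replicate 3 of 1 pg after 4 rounds. On replicate 1 of 0.1 pg after 2 rounds several probe sets, among them Cul1 and Skp1 on 1423149_at, shared the value -2.21. Higher values recurred there too, such as 0.57 for Cul4a and Ube2o. Readings on that array, low or not, can thus be ties rather than separate levels. The fitted differences come from limma with Benjamini-Hochberg adjustment over all 45037 probe sets and a threshold of 0.05. Precision is limited by the 3 arrays of a group, where the median SD within groups was 0.82 for the 99 probe sets and 0.70 for all.

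Amplified arrays held fewer of these probe sets above their median than bulk did, and the number was smallest at the lowest input. After 4 rounds, 39 to 43 of the 99 lay above the array median at 0.1 pg, 44 to 54 at 1 pg and 56 to 65 at 10 pg. After 2 rounds the numbers were 40 to 42 at 0.1 pg, 44 to 47 at 1 pg and 51 at 10 pg. Bulk had 75. The median level of the 99 after 4 rounds averaged -0.41 ± 0.16 with 0.1 pg, -0.06 ± 0.16 with 1 pg and 0.44 ± 0.23 with 10 pg (SD, n = 3 each). After 2 rounds it averaged -0.23 ± 0.24 with 0.1 pg and -0.08 ± 0.039 with 1 pg (SD, n = 3 each) and was 0.27 with 10 pg, against 0.93 in bulk. The ranges of 0.1 and 10 pg after 4 rounds did not overlap, and no amplified array reached the number in bulk.

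**Figure D1:**
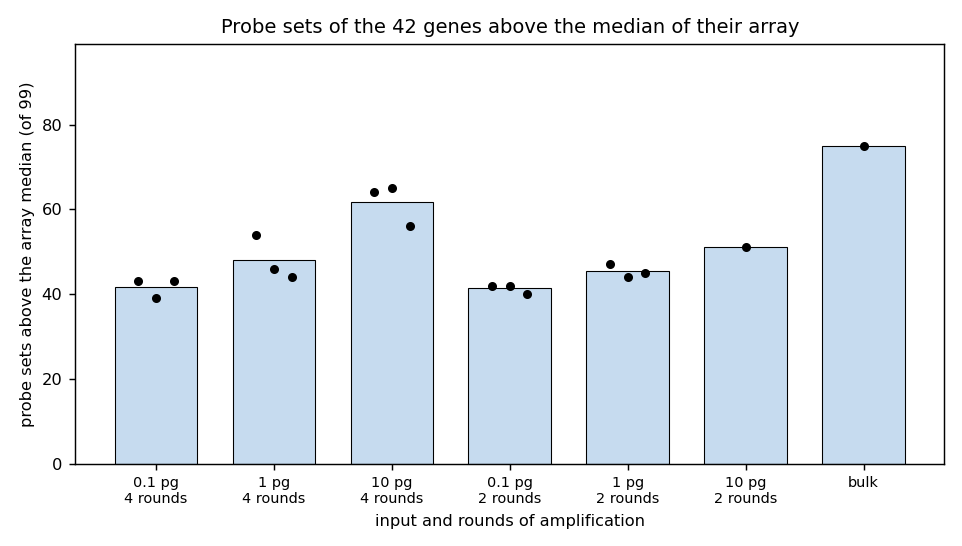
Number of the 99 probe sets of the 42 genes that lay above the median of their array (vertical axis), by input and rounds of amplification (horizontal axis). Points are arrays and bars their mean. The arrays of 0.1 pg after 4 rounds held 39 to 43 such probe sets, those of 10 pg after 4 rounds 56 to 65, and bulk 75.

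The comparison with the widest range of input was 0.1 against 10 pg after 4 rounds, 3 arrays each. It asks how the starting amount changes what is measured when the number of rounds is the same. In it 15 of the 99 probe sets, from 13 genes, were lower at 0.1 pg, where 4.82% of all probe sets were, and 2 were higher, where 4.04% of all were. The median change was -0.54 for the 99 and 0.10 for all probe sets. At an unadjusted p under 0.05 the numbers were 28 lower and 10 higher, where 11.9% of all probe sets were lower and 13.5% higher. The methods' t-test called 5 lower and 1 higher after adjustment. The share of all probe sets that it called is not given here, so these 2 counts have no background beside them. Counted by gene, with each gene taken at its probe set with the highest mean, 6 of 42 were lower and 2 higher, against 4.99% of all genes lower and 4.99% higher. Of the 15 lower probe sets 11 were E2s, 2 cullins and 2 linkers.

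Skp1, the linker between Cul1 and the F-box proteins that choose substrates, was among the largest losses. Its probe set 1423149_at read -0.11, -1.25 and -0.36 on the 3 arrays of 0.1 pg after 4 rounds, 4.42, 3.82 and 3.26 at 1 pg, and 4.85, 4.71 and 4.19 at 10 pg. After 2 rounds it read -2.21, -4.29 and -0.48 at 0.1 pg, 0.69, 2.43 and 1.40 at 1 pg, and 4.97 on the array of 10 pg, against 4.26 in bulk. The 4 arrays of 10 pg lay between 4.19 and 4.97, on either side of bulk, and every array of 0.1 pg lay below 0. The change of 0.1 against 10 pg after 4 rounds was -5.16 (SE 0.73, adjusted p = 0.000569, limma). The other Skp1 probe set, 1423148_at, read 0.15, 0.60 and -1.24 at 0.1 pg and 1.45, 1.29 and -0.40 at 10 pg after 4 rounds, with overlapping arrays and a change of -0.94 (SE 0.68, adjusted p = 0.41).

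Ube2w, an E2 whose human form attaches ubiquitin to the N terminus of proteins rather than to lysine, had a similar pattern on 2 of its 4 probe sets. Probe set 1452054_at read 0.29, -1.46 and -0.64 at 0.1 pg, 5.93, 2.73 and 6.04 at 1 pg, and 4.90, 4.55 and 4.37 at 10 pg after 4 rounds. After 2 rounds it read -1.64, -1.39 and -1.19 at 0.1 pg, 1.92, 2.60 and 1.60 at 1 pg, and 5.06 on the array of 10 pg, against 4.71 in bulk. The arrays of 0.1 pg did not overlap those of any other group. The change at 0.1 against 10 pg after 4 rounds was -5.21 (SE 0.70, adjusted p = 0.000403, limma), and on the second probe set, 1426398_at, it was -4.13 (SE 0.72, adjusted p = 0.00242). The remaining 2 probe sets gave -0.14 (1443188_at, adjusted p = 0.93) and 1.31 (1457544_at, adjusted p = 0.26), neither past the threshold.

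Ube2d3, an E2 that works with many different ligases including those built on cullins, was lower on 2 of 7 probe sets. On 1423113_a_at the values were -1.97, -1.37 and -1.52 at 0.1 pg, 2.77, 0.66 and 3.76 at 1 pg, and 3.11, 3.08 and 1.78 at 10 pg after 4 rounds. They were -1.15, 1.12 and -1.19 at 0.1 pg, -0.32, 0.80 and 0.39 at 1 pg and 1.98 at 10 pg after 2 rounds, against 3.12 in bulk. The change at 0.1 against 10 pg was -4.28 (SE 0.73, adjusted p = 0.00218, limma), with no overlap of arrays. On 1450859_s_at the values were -1.53, -0.58 and -1.20 at 0.1 pg and 4.36, 2.36 and 3.79 at 10 pg after 4 rounds, against 3.02 in bulk, with a change of -4.60 (SE 0.95, adjusted p = 0.00695).

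The probe set 1455480_s_at of the same gene behaved otherwise. It read 5.98, 5.58 and 5.89 at 0.1 pg, 5.95, 5.85 and 6.47 at 1 pg and 6.28, 6.19 and 6.42 at 10 pg after 4 rounds, 6.87, 6.89 and 6.53 at 0.1 pg, 6.28, 6.21 and 6.23 at 1 pg and 6.53 at 10 pg after 2 rounds, against 6.12 in bulk. All 17 arrays lay within 5.58 and 6.89, and the change of 0.1 against 10 pg was -0.48 (SE 0.36, adjusted p = 0.44). The other 4 probe sets of Ube2d3 gave changes between -3.47 and 0.64, none past the threshold. With probe sets that differ like this, a single level for Ube2d3 cannot be read from these data. An s in the name of a probe set marks probes that match more than one transcript. Both 1455480_s_at and the lower 1450859_s_at carry it, and its part in the differences was not tested.

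**Figure D2:**
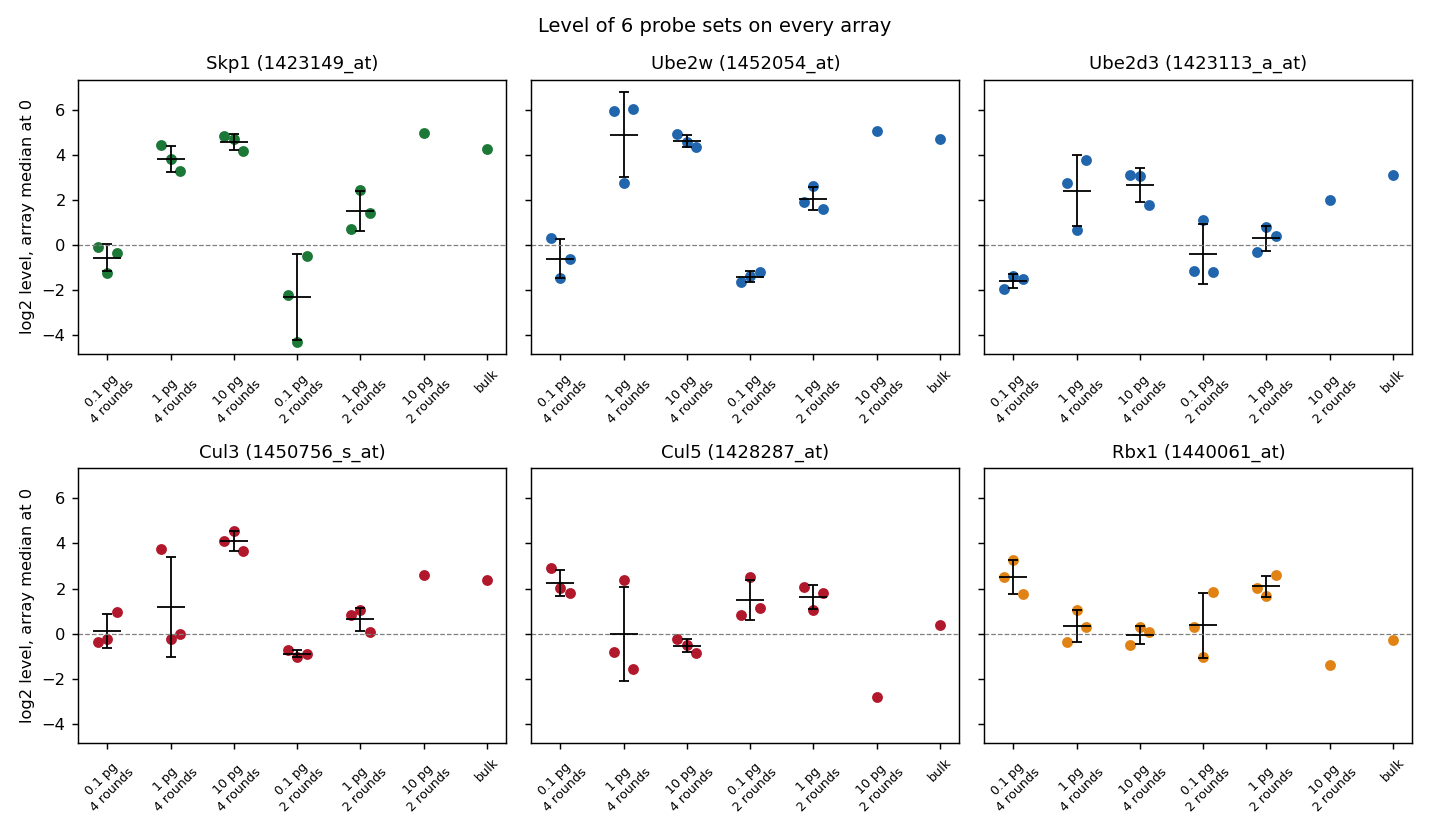
Log2 level (vertical axis, array median at 0) of 6 probe sets on every array, by input and rounds of amplification (horizontal axis). Points are arrays, and horizontal lines with bars are means ± SD where a group has 3 arrays. Skp1, Ube2w, Ube2d3 and Cul3 lie lower at 0.1 pg than at 10 pg after 4 rounds, and Cul5 and Rbx1 lie higher.

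Among the cullins, Cul3 and Cul1 were lower at 0.1 pg and Cul5 was higher. Cul3, which binds substrate receptors with a BTB domain, read -0.37, -0.24 and 0.97 at 0.1 pg, 3.74, -0.23 and 0.00 at 1 pg and 4.10, 4.55 and 3.68 at 10 pg after 4 rounds on 1450756_s_at, against 2.37 in bulk. The change of 0.1 against 10 pg was -3.99 (SE 0.77, adjusted p = 0.00485, limma), and replicate 1 of 1 pg stood with the arrays of 10 pg while its other 2 stood with those of 0.1 pg. The other 4 probe sets of Cul3 gave -1.85, -0.50, -0.22 and 0.98, none past the threshold. Cul1, the scaffold that Skp1 joins and the gene of a single probe set here, read 0.08, -1.92 and -0.50 at 0.1 pg and 1.84, 0.55 and 1.54 at 10 pg after 4 rounds, against 0.51 in bulk. Its change was -2.09 (SE 0.62, adjusted p = 0.0452), which became -1.52 without replicate 2 of 0.1 pg after 4 rounds (adjusted p = 0.20).

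Cul5 works with the elongins and with Rnf7. Its probe set 1428287_at read 2.89, 2.04 and 1.81 at 0.1 pg, -0.82, 2.37 and -1.59 at 1 pg and -0.24, -0.51 and -0.85 at 10 pg after 4 rounds, against 0.40 in bulk. The arrays of 0.1 pg lay above bulk and those of 10 pg below it, and the change was 2.78 (SE 0.77, adjusted p = 0.0337, limma). Leaving out any of these 6 arrays took the adjusted p above the threshold, up to 0.14 without replicate 1 of 0.1 pg. The other 2 probe sets of Cul5 changed by -0.95 (adjusted p = 0.26) and -1.13 (adjusted p = 0.36).

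The remaining cullins did not pass the threshold in this comparison. Cul4b, one of a pair of scaffolds that use Ddb1, read 3.47, 2.44 and 3.63 at 0.1 pg, 4.08, 3.85 and -0.85 at 1 pg and 0.92, -0.53 and 1.37 at 10 pg after 4 rounds. It read 4.14, 3.36 and 1.70 at 0.1 pg, 4.11, 3.95 and 3.89 at 1 pg and 1.86 at 10 pg after 2 rounds, against 0.90 in bulk. The arrays of 0.1 and 10 pg after 4 rounds did not overlap, but the change of 2.59 had an SE of 0.99 (adjusted p = 0.11, limma). Replicate 3 of 1 pg after 4 rounds, at -0.85, stood apart from the other 2 arrays of its group. Cul7, which pairs with the F-box protein Fbxw8, lay between 0.27 and 2.13 on the amplified arrays, against 0.97 in bulk. Cul2, the elongin-bound scaffold of the VHL ligase, averaged 0.82 ± 0.45 at 0.1 pg and 0.62 ± 0.23 at 10 pg after 4 rounds (SD, n = 3 each). Cul4a, the other scaffold that uses Ddb1, averaged -1.15 ± 0.67 at 0.1 pg and -0.90 ± 0.65 at 10 pg (SD, n = 3 each). Cul9, an atypical cullin with a ligase domain of its own, averaged 0.89 ± 0.43 at 0.1 pg and -0.34 ± 0.26 at 10 pg on 1439866_at (SD, n = 3 each). Its other probe set, 1427620_at, went the opposite way, with -0.38 ± 0.83 at 0.1 pg and 0.50 ± 0.36 at 10 pg (SD, n = 3 each).

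Eloc and Elob form the elongin pair that links Cul2 and Cul5 to their receptors. Eloc was lower on 1 of its 4 probe sets: 1427915_s_at read -3.45, -3.48 and -3.19 at 0.1 pg, -1.92, -0.79 and -2.61 at 1 pg and 1.15, 1.22 and -0.43 at 10 pg after 4 rounds. After 2 rounds it read -1.15, -2.21 and -2.75 at 0.1 pg, 0.75, -0.09 and -2.39 at 1 pg and 3.85 at 10 pg, against 3.16 in bulk. The change of 0.1 against 10 pg after 4 rounds was -4.02 (SE 0.72, adjusted p = 0.00299, limma), with no overlap of arrays. The other 3 probe sets gave -1.92, -1.53 and -1.28, none past the threshold. Elob averaged 0.72 ± 0.13 with 0.1 pg, 0.71 ± 0.38 with 1 pg and 0.46 ± 0.28 with 10 pg after 4 rounds (SD, n = 3 each), against -0.77 in bulk, on 1428263_a_at, a change of 0.26 (SE 0.40, adjusted p = 0.73). Its other probe set, 1436949_a_at, averaged -1.42 ± 0.57 with 0.1 pg and -0.04 ± 0.34 with 10 pg (SD, n = 3 each), a change of -1.38 without overlap of arrays that was not past the threshold either (SE 0.63, adjusted p = 0.18).

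Ddb1 links Cul4a and Cul4b to their receptors. It read 1.80, 1.65 and 1.82 at 0.1 pg, 0.40, -0.11 and 0.49 at 1 pg and 1.19, 1.30 and -0.19 at 10 pg after 4 rounds, against 0.52 in bulk. After 2 rounds the 3 arrays of 0.1 pg spread over 4.53, 3.59 and 0.61 and that of 10 pg read 4.39. The arrays of 0.1 and 10 pg after 4 rounds did not overlap, and the change of 0.98 was not past the threshold (SE 0.73, adjusted p = 0.43, limma).

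Rbx1, the RING subunit of most cullin ligases, was higher at 0.1 pg on its only probe set with a single symbol. It read 2.53, 3.27 and 1.77 at 0.1 pg, -0.37, 1.06 and 0.30 at 1 pg and -0.50, 0.27 and 0.06 at 10 pg after 4 rounds, against -0.29 in bulk. The change was 2.58 (SE 0.63, adjusted p = 0.0189, limma). It was 2.36 without replicate 1 of 10 pg (adjusted p = 0.091), 2.58 without replicate 1 of 0.1 pg (adjusted p = 0.065) and 2.21 without replicate 2 of 0.1 pg (adjusted p = 0.096). Rnf7, the RING subunit that serves Cul5, averaged 1.65 ± 0.53 at 0.1 pg and 2.34 ± 1.04 at 10 pg after 4 rounds on 1456600_a_at (SD, n = 3 each), and neither of its 2 probe sets passed the threshold.

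The other E2s that were lower at 0.1 pg differ in what they build. Ube2n, which builds the chains used in signalling and DNA repair, read -0.91, -0.23 and -2.53 at 0.1 pg and 1.93, 3.69 and 0.35 at 10 pg on 1435384_at, a change of -3.21 (SE 0.83, adjusted p = 0.0243, limma). Ube2a and Ube2b, the mammalian forms of yeast Rad6, were each lower on 1 probe set. Ube2a read -1.85, -2.61 and -1.38 at 0.1 pg and 1.00, 0.34 and 0.09 at 10 pg, a change of -2.43 (adjusted p = 0.0299), while its other probe set changed by 1.39 (adjusted p = 0.077). Ube2b read -2.68, -3.27 and -2.93 at 0.1 pg and 2.29, -0.12 and -1.69 at 10 pg on 1430177_at, where the 3 arrays of 0.1 pg were close together and those of 10 pg were not. That change was -3.12 (SE 0.74, adjusted p = 0.0155), and it was -2.05 without replicate 1 of 10 pg (adjusted p = 0.077).

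Ube2h, the E2 of the CTLH ligase, read -0.74, -0.96 and -0.26 at 0.1 pg and 1.93, 1.05 and 2.75 at 10 pg on 1418632_at, a change of -2.56 (SE 0.47, adjusted p = 0.00336, limma). Ube2k, which builds the type of chain that marks proteins for the proteasome, read -0.02, -1.35 and -0.33 at 0.1 pg and 0.67, 2.59 and 0.98 at 10 pg on 1417186_at, a change of -1.98 (adjusted p = 0.0301). The related E2s Ube2e1 and Ube2e2 changed by -3.36 (SE 0.76, adjusted p = 0.0120) and -1.79 (SE 0.54, adjusted p = 0.0490). The arrays of 0.1 and 10 pg did not overlap in any of the 17 probe sets that passed the threshold. With 3 arrays on each side this is close to a condition for passing it. They did not overlap in some others either, such as those of Cul4b on 1417453_at and Ddb1. The share of all probe sets without overlap was not counted.

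Of the 15 lower probe sets 8 stayed past the threshold whichever of the 15 arrays in groups of 3 was left out, namely those of Skp1, Cul3, Eloc and Ube2h and both of Ube2w and of Ube2d3. By the methods' t-test 4 of these 8 missed the threshold, namely Eloc (adjusted p = 0.0504), Ube2d3 on 1450859_s_at (adjusted p = 0.054), Ube2h (adjusted p = 0.079) and Ube2w on 1426398_at (adjusted p = 0.096). The other 7 lost the limma call without at least 1 array, as did both higher ones. After 4 rounds, Ube2a did so without replicate 1 or 2 of either 0.1 or 10 pg (-2.49 to -2.09, adjusted p up to 0.13, limma). Ube2b did so without replicate 2 of 0.1 pg or 1 of 10 pg (-2.96 to -2.05, adjusted p up to 0.077), and Ube2e1 without replicate 2 of 0.1 pg or 1 or 2 of 10 pg (-3.11 to -2.96, adjusted p up to 0.072). Ube2k did so without replicate 2 or 3 of 0.1 pg or 2 of 10 pg (-2.10 to -1.39, adjusted p up to 0.16), and Ube2n without replicate 1 or 3 of 0.1 pg or 1 or 2 of 10 pg (-3.37 to -2.36, adjusted p up to 0.12). Cul1 and Ube2e2, the weakest calls, were each lost without any one of 8 arrays or more, some of them outside the comparison. The count of lower probe sets was 9 without replicate 2 of 0.1 pg after 4 rounds and 9 without replicate 1 of 10 pg after 4 rounds. The share of all probe sets lower in these fits is not given here.

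**Figure D3:**
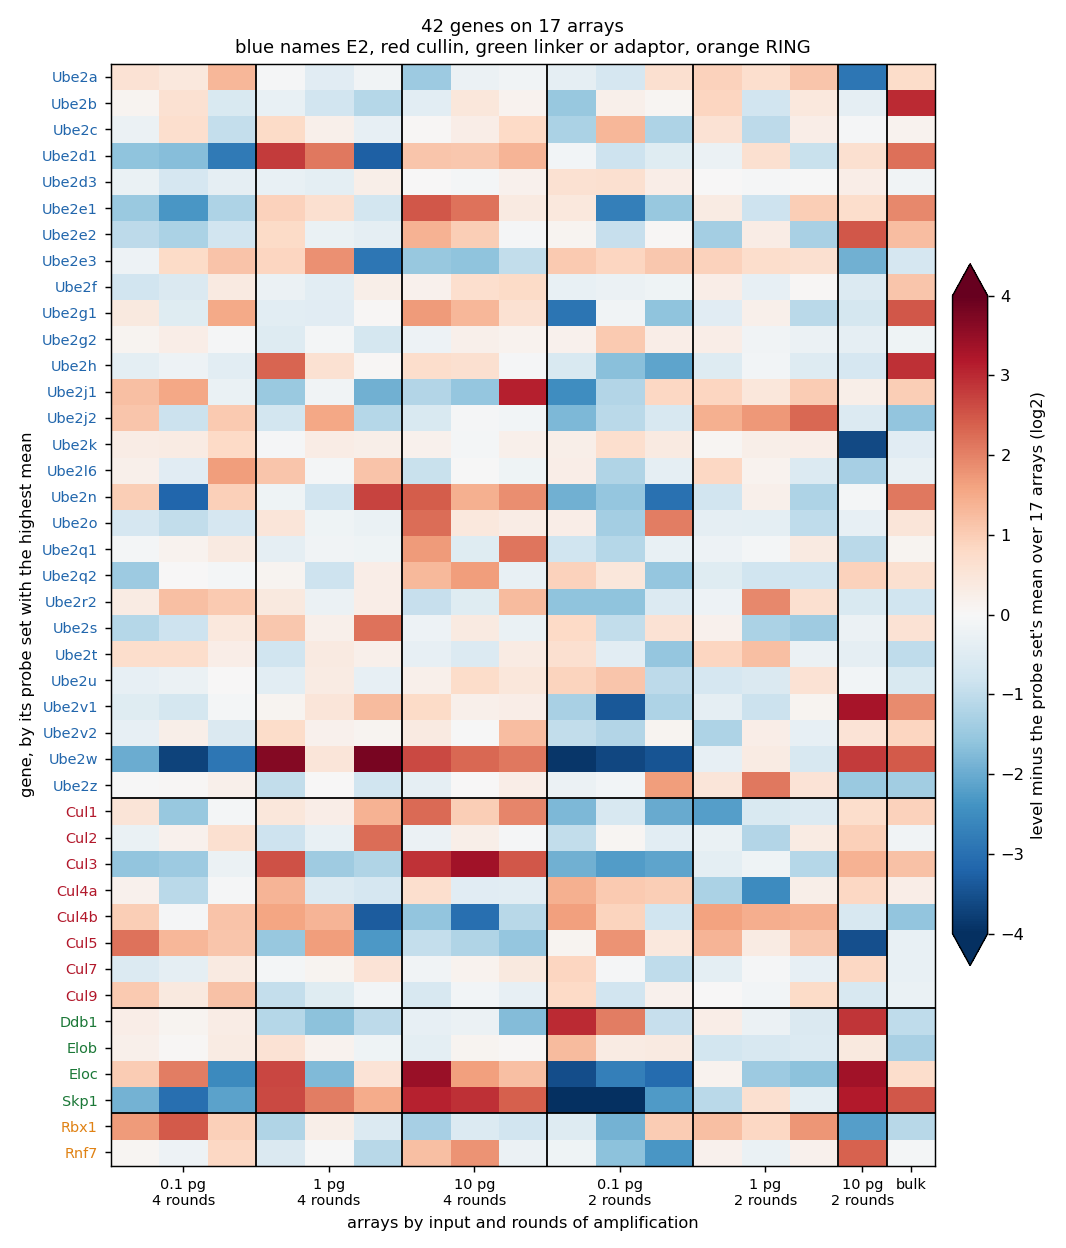
Level of the 42 genes on the 17 arrays, each gene by its probe set with the highest mean and each row as the difference from that probe set's own mean over 17 arrays (colour, log2, cut at -4 and 4). Rows are E2s, cullins, linkers or adaptors and RING subunits, and columns are arrays by input and rounds. Skp1 and Ube2w are blue on all 6 arrays of 0.1 pg, and the rows of Ube2d3 and Ube2f are pale on all arrays but bulk for Ube2f.

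The described E2s of other modifiers and the inactive E2 variants passed no threshold in this comparison. Ube2f, which loads NEDD8 and not ubiquitin, read between 6.00 and 7.55 on the 16 amplified arrays of 1432426_a_at, with a median of 6.57, and 7.87 in bulk. It averaged 6.44 ± 0.60 at 0.1 pg and 7.32 ± 0.32 at 10 pg after 4 rounds (SD, n = 3 each), a change of -0.87 (SE 0.41, adjusted p = 0.19, limma). Ube2l6, the E2 for ISG15, an interferon-induced modifier, read between -2.32 and 0.67 on the amplified arrays and -1.28 in bulk. Ube2v1 and Ube2v2 lack the active cysteine and partner Ube2n. Ube2v1 averaged 1.18 ± 0.31 at 0.1 pg and 2.02 ± 0.30 at 10 pg, and Ube2v2 1.34 ± 0.42 at 0.1 pg and 2.08 ± 0.64 at 10 pg after 4 rounds (SD, n = 3 each). Their changes were -0.84 (SE 0.54, adjusted p = 0.36) and -0.75 (SE 0.51, adjusted p = 0.38).

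The array gave its highest E2 values in bulk for Ube2f, Ube2d3 and Ube2k and its lowest for Ube2l6, Ube2u and Ube2t, each at its probe set with the highest mean, and these values depend on the probes as well as on the RNA. Ube2k on 1443148_at read 5.26 to 6.11 on 15 amplified arrays and 4.88 in bulk, but 1.72 on the array of 10 pg after 2 rounds. Ube2t, an E2 of the Fanconi anaemia pathway of DNA repair, read between -2.19 and 0.57 on the amplified arrays and -1.65 in bulk. Ube2u read between -1.93 and 0.21 on the amplified arrays and -1.50 in bulk. In cortical mRNA of many cell types a low level cannot be told apart between few cells that use the gene and little RNA per cell.

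Probe sets of one gene seldom passed the threshold together. Of the 30 genes with 2 or more probe sets, 11 had a probe set that was lower at 0.1 than at 10 pg after 4 rounds, in none of them were all probe sets lower, and in 2, Ube2d3 and Ube2w, at least 2 were. The other 2 genes with a lower probe set, Cul1 and Ube2e2, have only that one. The changes ran from -4.60 to 0.64 over the 7 probe sets of Ube2d3, from -1.98 to 1.43 over the 5 of Ube2k and from -0.87 to 1.72 over the 6 of Ube2f. Whether probe sets of a gene differed in their change was not tested. Of the 99 names 8 carry an s and 3 an x, which mark probes shared with other transcripts, and 19 carry an a, which marks probes shared by transcripts of one gene. Among the lower probe sets, Cul3 on 1450756_s_at, Eloc on 1427915_s_at and Ube2d3 on 1450859_s_at carry an s. For Cul3 and Eloc that is the only lower probe set.

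**Figure D4:**
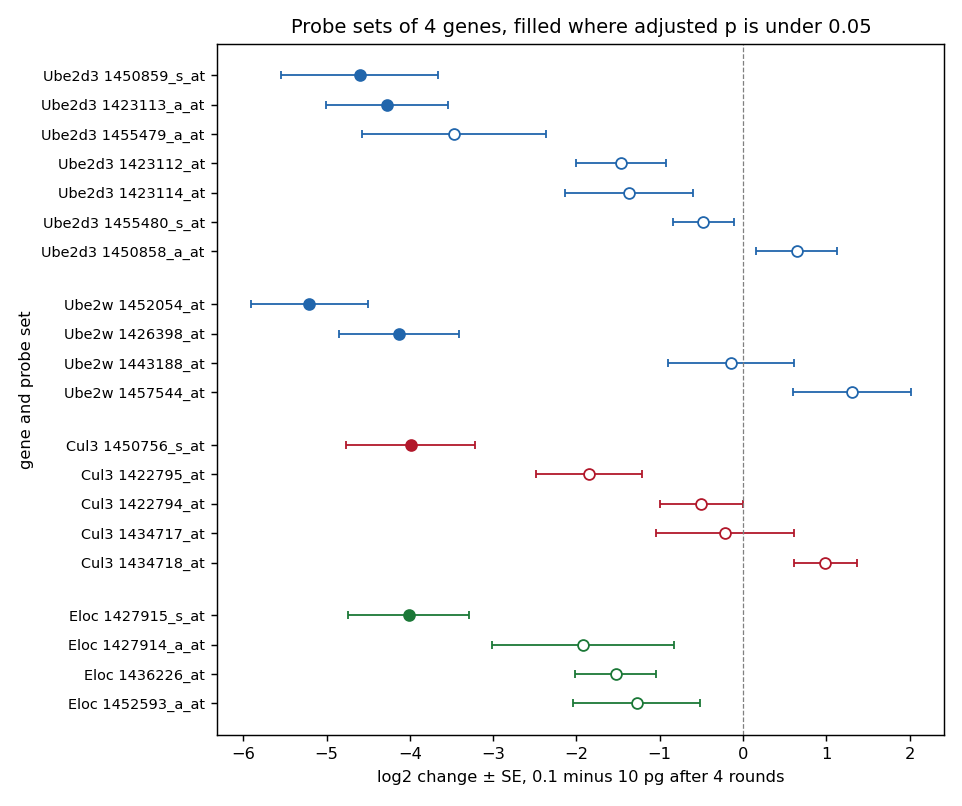
Log2 change of 0.1 against 10 pg after 4 rounds (horizontal axis) for every probe set of Ube2d3, Ube2w, Cul3 and Eloc (vertical axis), with the SE of the fit as bars and filled points where the adjusted p is under 0.05. Of the 7 probe sets of Ube2d3 2 are filled, at -4.60 and -4.28, and the others lie between -3.47 and 0.64.

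The lower probe sets were mostly ones with a strong signal in bulk. Their median percentile in bulk was 90.8, against 71.6 for all 99, although 2 of them lay below the median of the bulk array, the lower of the pair, that of Ube2b, at the 35.4 percentile. Of the 38 probe sets at or above the 80th percentile of bulk 11 were lower at 0.1 pg. Of all 9010 probe sets at that level on the array 13.8% were. Of the 24 below the median of bulk 2 were lower, against 1.21% of all probe sets below it.

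**Figure D5:**
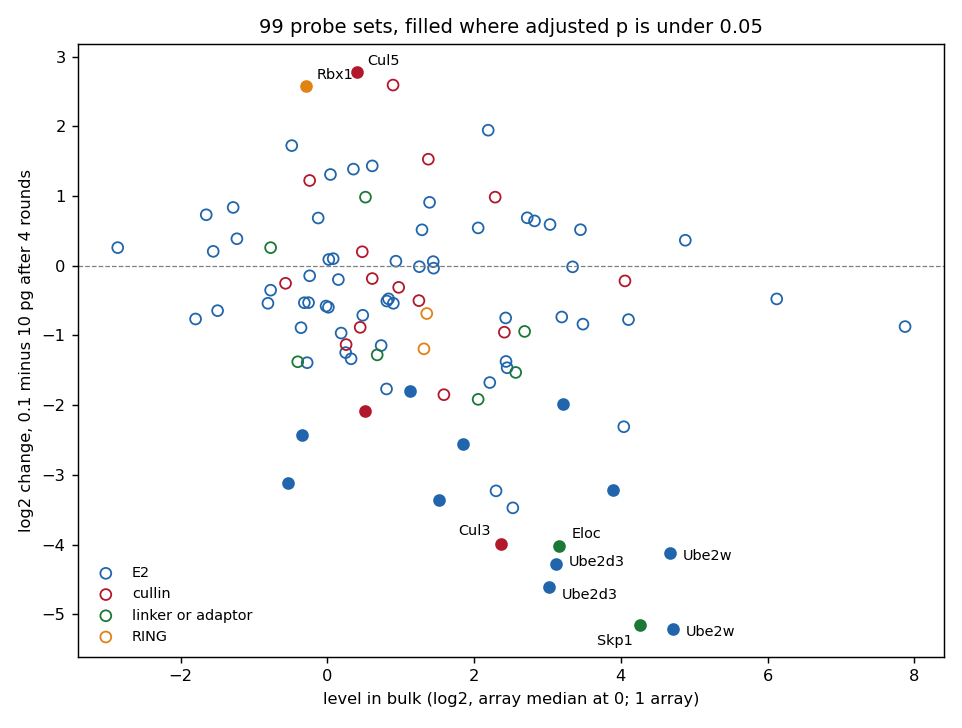
Log2 change of 0.1 against 10 pg after 4 rounds (vertical axis) against the level in bulk (horizontal axis, log2, array median at 0, 1 array) for the 99 probe sets, coloured by role and filled where the adjusted p is under 0.05. The filled points with the largest falls, of Ube2w and Skp1, lie at bulk levels between 4.26 and 4.71, and the 2 filled points above 0 are Cul5 and Rbx1.

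The controls for the length of the copied RNA differed with the input. On the array's control for Gapdh the 3' probe set lay 3.71 ± 0.028 above the 5' one at 0.1 pg and 4.73 ± 0.21 at 10 pg after 4 rounds (SD, n = 3 each), against 2.04 in bulk. For beta-actin the difference was -0.81 ± 0.16 at 0.1 pg and 1.13 ± 0.55 at 10 pg (SD, n = 3 each), against 1.09 in bulk. For the transferrin receptor it was 6.62 ± 0.77 at 0.1 pg and 4.73 ± 0.18 at 10 pg (SD, n = 3 each), against 5.36 in bulk, so the 3 controls did not move in the same direction. Of the 6 neuronal markers 3 (Snap25, Eno2 and Nefl) were also lower at 0.1 pg, against 4.99% of all genes, and their mean level over the list was 1.89 to 2.57 on the arrays of 0.1 pg and 4.36 to 4.82 on those of 10 pg, against 4.16 in bulk. All 6 lay above the median of bulk. Among the 20 measured markers of other cell types and tissues, 1 passed the threshold, Mbp of oligodendrocytes, which was higher at 0.1 pg (2.99, adjusted p = 0.026, limma). The part of these in the changes of the 42 genes was not tested.

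Other genes of the pathway passed the threshold in both directions. Of 59 genes listed as E1 enzymes, ubiquitin and NEDD8 genes, substrate receptors, COP9 signalosome subunits, cullin regulators and E2s outside the symbol pattern, 48 were measured, and 5 were lower and 5 higher at 0.1 than at 10 pg after 4 rounds, where 4.99% of all genes were lower and 4.99% higher. Lower were Cops2, a subunit of the COP9 signalosome that removes NEDD8 from cullins (-5.20, adjusted p = 0.000440, limma), and Birc6, a giant protein with both E2 and ligase activity (-4.96, adjusted p = 0.00413). Dcun1d1, which helps to attach NEDD8 to cullins, was lower by a change of -3.54 (adjusted p = 0.00545). The receptors Fbxo11, which joins Cul1 ligases, and Spop, which joins Cul3, changed by -2.40 (adjusted p = 0.0186) and -2.37 (adjusted p = 0.0224).

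Higher were Ube2d2a, a close relative of Ube2d3 (3.07, adjusted p = 0.0329, limma), Cops7b (2.95, adjusted p = 0.00449), Arih2, a ligase that works with Cul5 (1.77, adjusted p = 0.0458), and the F-box proteins Fbxo6 (1.73, adjusted p = 0.0490) and Skp2 (1.70, adjusted p = 0.0383). None of the 5 measured E1 enzymes passed the threshold, and their median change was 0.70, against 0.13 for all genes at their probe set with the highest mean.

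The averaged comparison of 0.1 against 1 pg over 2 and 4 rounds, with 6 arrays on each side, gave 4 lower and 0 higher of the 99 probe sets, where 0.986% of all were lower and 0.255% higher. By gene it was 2 of 42 lower, against 1.28% of all genes. At an unadjusted p under 0.05 the numbers were 12 lower and 4 higher, where 7.71% of all were lower and 7.36% higher, and the methods' t-test called 0 in either direction after adjustment. That test pooled the arrays of 2 and 4 rounds on each side, so a difference between rounds adds to its spread. The share of all probe sets that it called is not given here, so its 0 does not check the fit like for like. The median change of the 99 was -0.06 and that of all probe sets 0.05. The 4 were Skp1 on 1423149_at, Ube2w on both of its lower probe sets and Ube2d3 on 1423113_a_at, and the arrays of the 2 inputs overlapped for Ube2w on 1426398_at and for Ube2d3.

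Within 4 rounds the difference of 0.1 against 1 pg was -4.41 for Skp1 (adjusted p = 0.00593, limma) and -5.50 for Ube2w on 1452054_at (adjusted p = 0.00105). Within 2 rounds it was -3.83 for Skp1 (adjusted p = 0.0240) and -3.45 for Ube2w (adjusted p = 0.0276). Ube2d3 on 1423113_a_at changed by -4.02 within 4 rounds (adjusted p = 0.00954) and by -0.70 within 2 rounds (adjusted p = 0.66). Ube2w on 1426398_at changed by -5.08 within 4 rounds (adjusted p = 0.00203) and by -1.55 within 2 rounds (adjusted p = 0.28). The averaged call of Ube2d3 (-2.36, adjusted p = 0.0351) did not hold without any one of 10 of the 12 arrays compared, for example -2.02 without replicate 3 of 1 pg after 4 rounds (adjusted p = 0.073).

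In 4 against 2 rounds averaged over 1 and 0.1 pg, 2 of the 99 probe sets were higher and 0 lower, where 1.99% of all were higher and 1.91% lower, and by gene 2 of 42 were higher, against 2.36% of all genes. At an unadjusted p under 0.05 the numbers were 11 higher and 9 lower, where 10.2% of all were higher and 11.6% lower, and the methods' t-test called 0 in either direction after adjustment. That test pooled the arrays of 0.1 and 1 pg on each side, so a difference between inputs adds to its spread. The share of all probe sets that it called is not given here, so its 0 does not check the fit like for like. The 2 higher were Skp1 (2.04, SE 0.52, adjusted p = 0.0392, limma) and Ube2w on 1452054_at (1.83, SE 0.50, adjusted p = 0.0499). Both had overlapping arrays. The effect for Skp1 was 1.75 at 0.1 pg alone (adjusted p = 0.18) and 2.33 at 1 pg alone (adjusted p = 0.082). That for Ube2w was 0.80 at 0.1 pg alone (adjusted p = 0.55) and 2.86 at 1 pg alone (adjusted p = 0.0368). At 0.1 pg alone 2 of the 99 were lower and 0 higher, where 1.74% of all probe sets were lower and 1.41% higher. At 1 pg alone 1 was lower and 3 higher, where 1.73% of all were lower and 1.80% higher. The call of Skp1 was lost without any one of 10 arrays (1.84 to 2.21, adjusted p up to 0.092), and kept without replicate 2 of 1 pg after 4 rounds, replicate 2 of 1 pg after 2 rounds or any array of 0.1 pg after 2 rounds. That of Ube2w was lost without any array but replicate 2 of 1 pg after 4 rounds (1.54 to 2.04, adjusted p up to 0.12).

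The effect of rounds differed between the inputs for 6 probe sets. The difference, 4 minus 2 rounds at 0.1 pg less the same at 1 pg, was negative for 2 and positive for 4. Of all probe sets 1.13% had a negative and 2.46% a positive one. Counted by gene, at the probe set with the highest mean, 0 were negative and 2 positive, against 0.956% and 3.03% of all genes. Whether these counts exceed the shares of all was not tested. Rnf7 on 1426414_a_at read -1.30, -0.58 and -1.52 after 4 rounds and 0.30, 1.00 and 1.59 after 2 rounds at 0.1 pg. At 1 pg it read 0.50, -0.34 and 1.22 after 4 rounds and -1.03, -1.46 and -0.87 after 2 rounds, so that the arrays separated in opposite directions. The effect of rounds was -2.10 at 0.1 pg (adjusted p = 0.0290, limma) and 1.58 at 1 pg (adjusted p = 0.076).

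Cul3 on 1434718_at read 0.58, 0.94 and 0.75 after 4 rounds and -0.35, 0.00 and -0.48 after 2 rounds at 0.1 pg. At 1 pg it read -0.52, -0.72 and -0.80 after 4 rounds and 0.75, 1.07 and 1.44 after 2 rounds, again without overlap. The effect of rounds was 1.03 at 0.1 pg (adjusted p = 0.13, limma) and -1.77 at 1 pg (adjusted p = 0.0208). Ube2n on 1435384_at read -0.91, -0.23 and -2.53 after 4 rounds and 0.30, 0.86 and -1.04 after 2 rounds at 0.1 pg. At 1 pg it read 3.19, 2.81 and 0.77 after 4 rounds and -0.85, -0.86 and -1.70 after 2 rounds, an effect of 3.39 (adjusted p = 0.0358).

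The other 3 were Ube2w on 1457544_at, Rbx1 and Ube2j2, an E2 anchored in the membrane of the endoplasmic reticulum. Rbx1 averaged 2.53 ± 0.75 after 4 rounds and 0.37 ± 1.45 after 2 rounds at 0.1 pg, and 0.33 ± 0.72 after 4 rounds and 2.10 ± 0.47 after 2 rounds at 1 pg (SD, n = 3 each). Ube2j2 averaged 1.90 ± 1.12 after 4 rounds and 0.29 ± 0.59 after 2 rounds at 0.1 pg, and 1.36 ± 1.46 after 4 rounds and 3.28 ± 0.44 after 2 rounds at 1 pg (SD, n = 3 each). Of the 6 differences, those of Rnf7 and Cul3 stayed past the threshold whichever of the 15 arrays was left out. Ube2w was lost without any one of 8 arrays, Rbx1 without any one of 6, Ube2n without any one of 11 and Ube2j2 without any one of 12.

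Set against bulk, amplified RNA was lower for 7 of the 99 probe sets and higher for 0, where 1.03% of all were lower and 0.0733% higher. By gene 2 of 42 were lower, Ube2b and Ube2h, against 0.704% of all genes, and 0 were when the fit and adjustment held 1 probe set per gene. At an unadjusted p under 0.05 the numbers were 34 lower and 2 higher, where 7.81% of all were lower and 5.58% higher, and the methods' t-test called 0 in either direction after adjustment. That test pooled the amplified arrays of all inputs and rounds, so differences between these groups add to its spread. The share of all probe sets that it called is not given here, so its 0 does not check the fit like for like. The median difference was -0.84 for the 99 and 0.10 for all probe sets. Bulk is a single array that the fit assumes to vary like the other groups, so a deviation of that array and an effect of amplification cannot be told apart.

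On each of the 7 the 16 amplified arrays lay below bulk. That was not particular to them. It was also so for probe sets not past the threshold, such as Cul3 on 1434717_at (up to 1.29 on amplified arrays, 4.06 in bulk) and Skp1 on 1423148_at (up to 1.45, 2.69 in bulk). The share of all probe sets below bulk on every amplified array was not counted. Cul5 on 1452722_a_at read -2.21 to 0.00 (median -1.15) on amplified arrays and 2.41 in bulk, a difference of -3.42 (SE 0.65, adjusted p = 0.0174, limma). Ube2b on 1423107_at read -1.15 to 1.20 (median 0.25) on amplified arrays and 3.34 in bulk, a difference of -3.20 (SE 0.70, adjusted p = 0.0380). Ube2e3 on 1448670_at read -0.69 to 1.51 (median -0.11) on amplified arrays and 3.03 in bulk, a difference of -3.03 (SE 0.61, adjusted p = 0.0255). These probe sets lay below bulk at every input, 10 pg included.

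Ube2k on 1417186_at read -1.35 to 2.59 (median -0.16) on amplified arrays and 3.21 in bulk (-3.16, adjusted p = 0.0331, limma). Ube2h on 1418631_at read -0.91 to 3.52 (median 0.90) on amplified arrays and 4.10 in bulk (-3.15, adjusted p = 0.0367). Eloc on 1436226_at read -1.71 to 0.93 (median -0.51) on amplified arrays and 2.57 in bulk (-2.98, adjusted p = 0.0280). Cul3 on 1434718_at read -0.99 to 1.44 (median -0.17) on amplified arrays and 2.29 in bulk (-2.34, adjusted p = 0.0274). The call of Ube2b was lost without replicate 1 of 0.1 pg or 3 of 10 pg after 4 rounds or replicate 3 of 1 pg after 2 rounds (-3.22 to -3.20, adjusted p up to 0.060). That of Ube2h was lost without any array of 0.1 pg after 4 rounds or replicate 1 or 3 of 1 pg after 2 rounds (-3.16 to -3.14, adjusted p up to 0.058). By contrast, Skp1 on 1423149_at and Ube2w on 1452054_at, the largest falls with input, differed from bulk by -2.27 (adjusted p = 0.30) and -2.28 (adjusted p = 0.27) over all amplified groups, and by -2.86 and -2.80 without the array of 10 pg after 2 rounds. All 7 calls held without that array, and 9 probe sets were then lower. The share of all probe sets lower in that fit is not given here.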

How the data were processed

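Affymetrix mouse genome arrays of one cortical mRNA, 17 in 7 groups, were analysed. The authors summarized probes with RMA 2.0, for which their methods name the upper decile statistic, and deposited log2 values from 1.56 to 15.8. The median centering and percentile scaling of their methods are not in these values. They were applied here: the median of an array was subtracted, and the values were then scaled so that the distance between the 10th and 90th percentiles, 4.22 to 4.99 as deposited, became 4.64 on every array. Of 45101 probe sets 64 controls were left out, and 0 columns were without a sample. Symbols come from the array's annotation, which gives 1 symbol for 34945 probe sets, several for 932 and none for 9160. No sequences or coordinates of probes were used.

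Groups follow the labels. limma 3.58.1 in R 4.3.3 fitted 7 group means over all 17 arrays (lmFit, contrasts, eBayes, 16.4 degrees of freedom). Benjamini-Hochberg adjustment ran over 45037 probe sets, with a threshold of 0.05. In data simulated for 0.1 against 10 pg after 4 rounds, over 45037 probe sets with normal noise, only 100 were given a log2 change of 2 and 100 one of 4. The fit recovered 21 of the former and 88 of the latter. In the arrays 2173 probe sets were called lower and 1818 higher. With so many more calls the adjustment is less strict, so the simulated recovery is not that of the reported fit. Figures were drawn with matplotlib 3.10.9 in python 3.11.15.

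The genes, lists and tests were chosen with earlier results of these data known. Named were, per comparison, up to 5 probe sets that rose most and 5 that fell most, past the threshold and without overlapping arrays, every cullin, linker, adaptor and RING gene at its probe set with the highest mean, the 3 E2s at each end of bulk, the E2s of other modifiers, Ube2v1 and Ube2v2, and the 3 genes whose probe sets differ most. Other probe sets past the threshold were named after their values were seen. Alternatives were other scalings, filters, thresholds, a replicate block, t-tests, fits of the compared groups alone, 1 probe set per gene, single inputs or rounds (added after seeing the data), and leaving out each array.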

Additional observations from a re-analysis of the deposited data

Results flagged for a closer look

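For 6 probe sets the effect of 4 against 2 rounds differed between 0.1 and 1 pg by a test of the difference itself (limma, adjusted over all probe sets). Of the 99, 2 differences were negative and 4 positive, against 1.13% and 2.46% of all probe sets. Counted by gene, 0 were negative and 2 positive, against 0.956% and 3.03% of all genes. An excess over these shares was not tested. The difference was -4.66 for Ube2n on 1435384_at (SE 1.17, adjusted p = 0.0392) and -3.68 for Rnf7 on 1426414_a_at (SE 0.68, adjusted p = 0.0120). It was 4.16 for Ube2w on 1457544_at (SE 1.01, adjusted p = 0.0338), 3.93 for Rbx1 on 1440061_at (SE 0.90, adjusted p = 0.0266), 3.54 for Ube2j2 on 1426138_a_at (SE 0.94, adjusted p = 0.0472) and 2.80 for Cul3 on 1434718_at (SE 0.53, adjusted p = 0.0137). Other probe sets of Ube2n, Rnf7, Ube2w, Ube2j2 and Cul3 did not pass this test. Rbx1 has no other probe set with a single symbol. Only the differences of Rnf7 and Cul3 held whichever array was left out. That of Ube2j2 was lost without any one of 12 arrays, Ube2n of 11, Ube2w of 8 and Rbx1 of 6.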

How the results depend on the processing

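No direction of a called probe set reversed under any alternative. For 0.1 against 10 pg after 4 rounds, where 15 were lower and 2 higher, 9 were lower among probe sets above the median only, 6 with 1 probe set per gene, 2 at a false discovery rate of 0.1% and 5 by the methods' t-test (0 at 0.1%). There 6 were higher with the compared groups alone, 1 by the t-test, and 0 at 0.1% by either. For 0.1 against 1 pg, 2 of 4 stayed lower at 0.1% and 2 with 1 probe set per gene, 0 were lower by the t-test at either rate, and 1 was higher after 2 rounds alone. For 4 against 2 rounds, 1 of 2 was higher with deposited values, median centering alone or quantile normalization, and 0 with the replicate block, the compared groups alone, 0.1%, either t-test or 0.1 pg alone. There 1 was lower with the compared groups alone and at 1 pg alone, and 2 at 0.1 pg alone. Against bulk, 11 were lower with median centering alone and 0 at 0.1%, by either t-test or with 1 probe set per gene. For the difference between inputs in the effect of rounds, 1 of 2 was negative above the median only and 0 at 0.1% or with 1 probe set per gene, while 2 of 4 were positive with the compared groups alone or 1 probe set per gene and 0 at 0.1%. The causes were not tested. With median centering alone 786 of all probe sets were lower against bulk, where 462 were as reported. With deposited values, median centering alone and quantile normalization, 808, 952 and 871 of all were higher for 4 against 2 rounds, against 896. Fewer genes were tested in some of these settings. For the other counts, t-tests included, no share of all probe sets is given beside them. Except for 0.1 against 10 pg, the t-tests pooled groups that differ in rounds or input.

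Leaving out each array in turn, the counts ranged from 9 to 17 lower and 0 to 4 higher (0.1 against 10 pg), 3 to 5 and 0 to 1 (0.1 against 1 pg), 0 to 2 and 0 to 3 (4 against 2 rounds), 5 to 10 and 0 to 0 (bulk), and 1 to 4 negative and 1 to 7 positive (the difference between inputs). Replicate numbers showed no sign of pairing the amplifications. Of 30 same-numbered pairs 2 had a correlation of deviations over 0.1, and 3 of 15 arrays correlated best with their own number. The mean correlation was -0.0072 for same-numbered pairs and 0.0036 for other pairs. This check cannot exclude a shared batch, and the labels do not settle it. With the replicate block the paired fit gave 14 lower probe sets for 0.1 against 10 pg, 3 for 0.1 against 1 pg and 8 against bulk. The share of all probe sets called with this block or without each array is not given here. With deposited values the median change of all probe sets was 0.20 for 0.1 against 10 pg (members -0.47), 0.30 against bulk (members -0.55), and 55.3% of all calls at 0.1 against 10 pg were higher, against 45.6% as reported. The t-test could not be run for the difference between inputs.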
